A study of Mus musculus with 6 samples.

Results

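The vessel wall of the brain was followed through 43 genes of endothelial cells, their barrier and the mural cells around them. They were selected by gene symbol from the table of estimated counts per gene, in which each symbol occurs once, and all 43 were found among the 55421 genes listed. By their known roles, 33 belong to the endothelium: 8 junction and adhesion genes, 9 receptor and vessel signalling genes, 8 transporters of the barrier, 5 transcription factors and 3 surface markers. The other 10 are mural, with 7 genes of pericytes and 3 of smooth muscle cells.

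Endothelial cells of brain capillaries are joined by tight junctions and carry selective transporters, and together these form the blood-brain barrier. Pericytes share the basement membrane with them and are needed for the barrier to form, while smooth muscle cells surround arteries and arterioles and set their width. Substance P (SP) is a neuropeptide known in peripheral tissues for dilating vessels and making venules leak.

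RNA was sequenced from the hippocampi of 6 wild-type male C57BL/6N mice aged 8 to 10 weeks. SP (10 µM, 100 µL) was injected subcutaneously for 14 days into 3 of them, and the 3 vehicle mice received the same volume of saline. Each mouse gave 1 stranded mRNA library, and within each group the mice carry the numbers 1 to 3. The libraries held 23105888, 24560585 and 27605937 counts for vehicle 1, 2 and 3, and 23608411, 24284608 and 22349941 for SP 1, 2 and 3. Expression is given as CPM, computed by edgeR on library sizes normalized by TMM. Higher and lower mean higher or lower in libraries labelled SP than in libraries labelled vehicle. The paper names *Mbp* among its downregulated genes, while its log2FC here was 0.38, higher in libraries labelled SP. The direction of the labels is therefore in doubt, and the treatment of each library was not settled in another way. Whether the group labels were exchanged was not tested, and each direction given would turn if they were.

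Library SP 1 stood apart from the rest before any vascular gene was compared. The summed level of 13 markers of choroid plexus epithelium was 4053, 3945 and 4934 CPM in vehicle 1, 2 and 3, and 193, 2918 and 4108 CPM in SP 1, 2 and 3. SP 1 was thus far below the 5 others, and SP 2 was below the remaining 4. The most abundant marker, *Ttr*, which encodes transthyretin, was at 125 CPM in SP 1 and averaged 2925 CPM over all 6 libraries, and 0 of the 13 markers were at 0 in every library. Library SP 2 differed in other markers. Its 16 leptomeningeal fibroblast markers summed to 688 CPM against 958 to 1152 CPM in the others, and its 10 oligodendrocyte markers summed to 7126 CPM against 4334 to 5524 CPM. Values without replicate 1, which leaves out SP 1 and vehicle 1, are given below for part of the genes.

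All 43 members were expressed in each library. The lowest count of any member was 30, for *Higd1b* in vehicle 3, so that each of them passed the filter on low counts. Per kilobase of transcript, mean levels over the 6 libraries ran from 0.873 CPM per kb for *Abcc9*, the sulfonylurea receptor of pericyte potassium channels, to 34.5 CPM per kb for *Vtn*, which encodes vitronectin. The highest levels after *Vtn* were those of *Pltp*, a phospholipid transfer protein, with 30.1 CPM per kb, and *Itm2a*, a membrane protein of barrier endothelium, with 28.6 CPM per kb. The defining endothelial gene *Cldn5* stood at 20.6 CPM per kb and the pericyte gene *Rgs5* at 21.9 CPM per kb, while *Pecam1* and *Pdgfrb* lay close together at 5.15 and 4.76 CPM per kb. Markers of endothelium, pericytes and smooth muscle were thus all present. The order of neighbours is not firm where the ranges over libraries meet, as for *Ly6c1* at 22.8 and *Rgs5* at 21.9 CPM per kb.

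**Figure D1:**
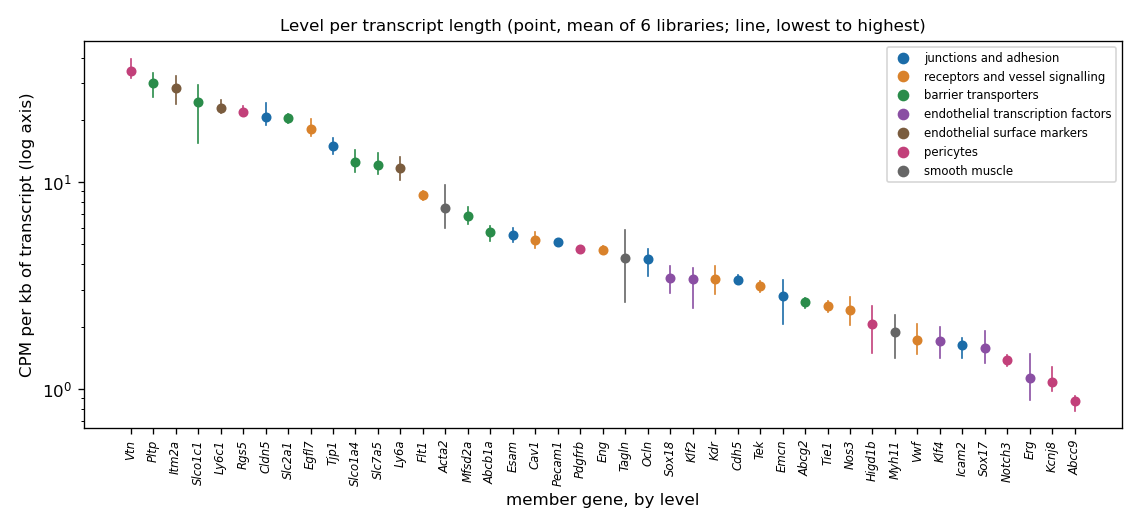
Mean level of each of the 43 members in CPM per kb of transcript on a log axis, coloured by role, with lines from the lowest to the highest of 6 libraries. Levels run from 0.873 for *Abcc9* to 34.5 for *Vtn*, and the lines are longest for *Tagln* and *Slco1c1*.

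The spread over the 6 libraries differed widely between members. The coefficient of variation was 1.76% for *Pecam1*, the platelet and endothelial adhesion molecule, and 30.3% for *Tagln*, a smooth muscle actin-binding protein, with a median of 8.58% over members and 8.33% over all tested genes. In 12 of 43 members (27.9%) it was below the value that counting alone would give, against 17.2% of all tested genes. Library SP 1 was the highest of the 6 for 12 members (27.9%) and the lowest for 9 (20.9%), against 16.8% and 18.9% of all tested genes. Vehicle 1 was the lowest for 10 members (23.3%) and the highest for 2 (4.65%), against 14.5% and 14.2% of all tested genes.

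**Figure D2:**
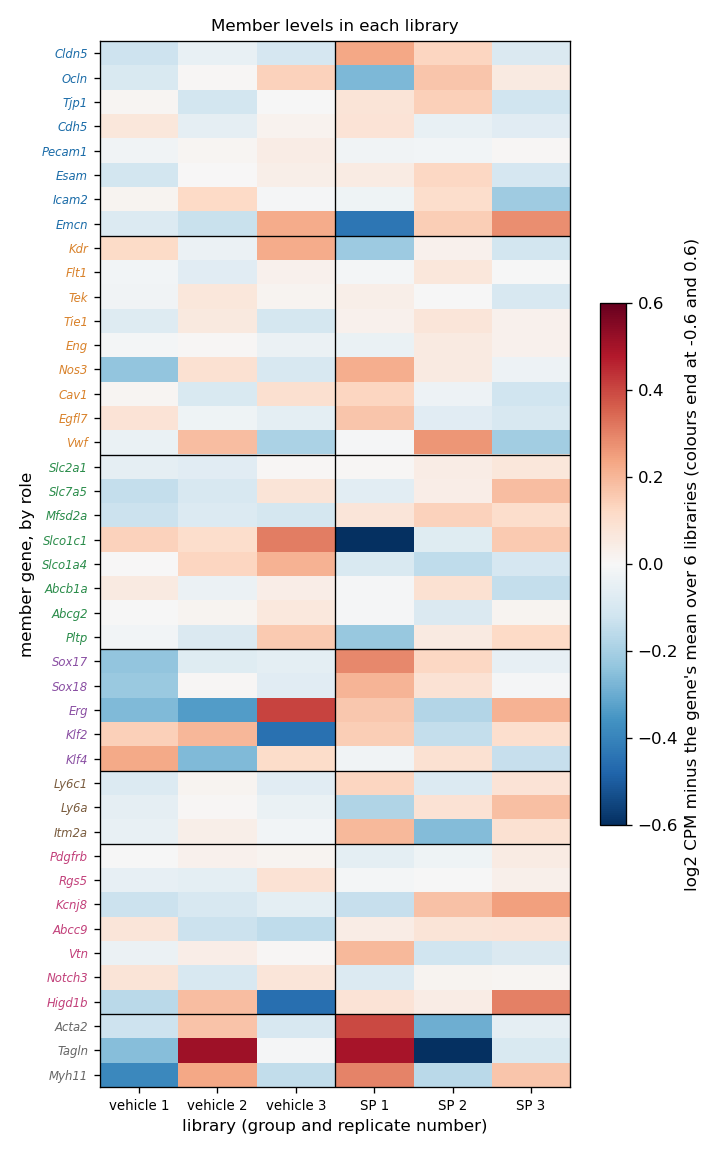
Level of each member in each library, as log2 CPM minus the mean of that gene over the 6 libraries, with genes grouped by role and the groups divided by a vertical line. *Slco1c1* is far lower in SP 1 than elsewhere, and the 3 smooth muscle genes are high together in vehicle 2 and SP 1.

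No member was called between SP and vehicle. With edgeR's quasi-likelihood test and the replicate number as a block, 0 of 43 members passed an FDR under 0.1 and |log2FC| over 0.3, where 5 of 17069 tested genes (0.0293%) did. Those 5, *Gm10409*, *Gm20431*, *Rpl35a-ps3*, *Gm3020* and *Fam205a4*, lie outside the vascular genes and are named only for completeness, after their values were seen. DESeq2 and limma-voom, each with the block, also called 0 members. An unadjusted p under 0.05 was found for 3 members (6.98%), 1 higher and 2 lower, against 10.1% of all tested genes, 4.48% higher and 5.59% lower. DESeq2 found 2 such members (4.65%), against 4.13% of all tested genes, and limma-voom 3, against 9.99%. The 3 libraries of each group did not overlap for 4 members (9.30%), 3 higher and 1 lower, against 18.2% of all tested genes, 9.19% higher and 9.03% lower. In bulk tissue, fewer cells of a type and less RNA per cell cannot be told apart, for these and all other values given here.

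The fold changes of the members were small and lay on both sides of 0. The median log2FC was 0.03 over the 43 members and 0.00 over all tested genes, with 26 members above 0 and 17 below. Single members ran from -0.36 for *Slco1c1* to 0.28 for *Higd1b*, which had 0.04 to 0.50 when a replicate was left out. The 95% interval of the log2FC lay within 0.3 of 0 for 24 members (55.8%), against 46.4% of all tested genes, and the median standard error was 0.0915 for members and 0.0906 for all genes. Summed over the members, expression was 1064, 1074 and 1120 CPM in vehicle 1, 2 and 3, and 1076, 1084 and 1090 CPM in SP 1, 2 and 3. The SP sums lay inside the range of the vehicle sums.

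**Figure D3:**
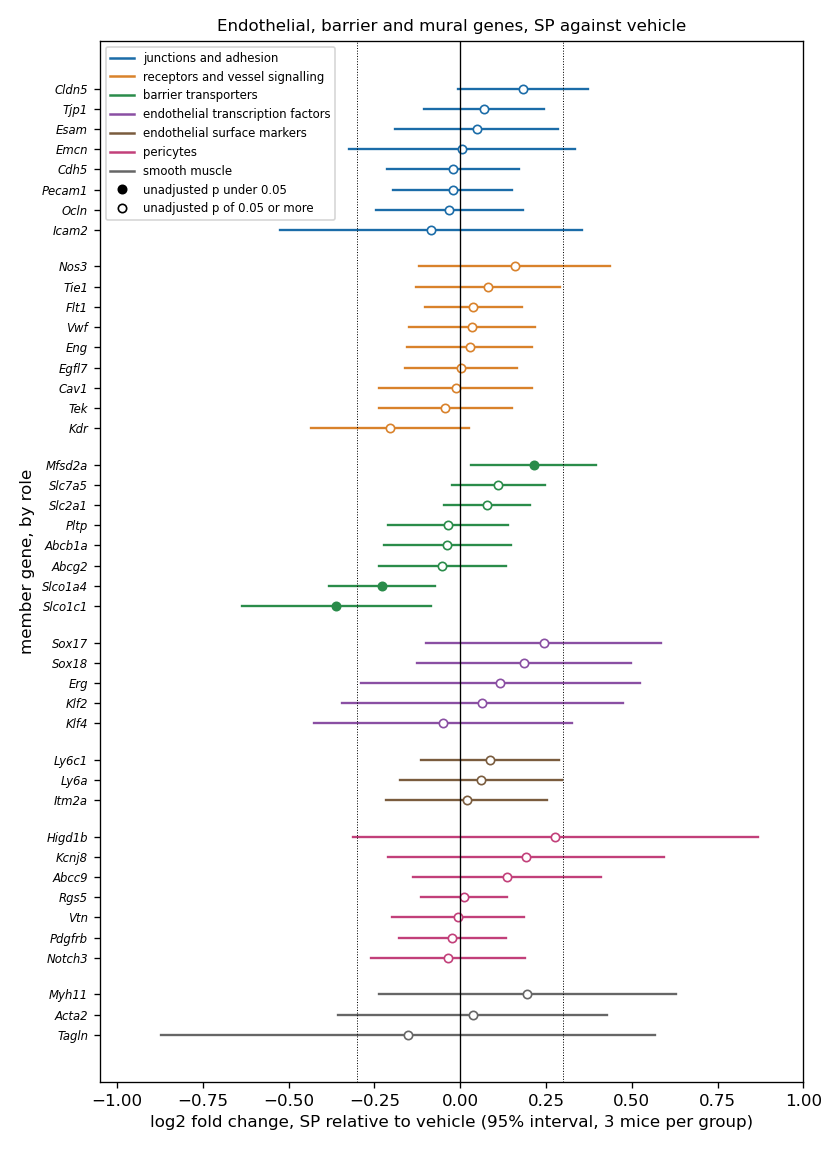
Log2 fold change of each of the 43 members, SP relative to vehicle, with its 95% interval from edgeR's quasi-likelihood test on 3 mice per group, grouped by role and with dotted lines at -0.3 and 0.3. Filled points mark the 3 members with an unadjusted p under 0.05, all of them barrier transporters.

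The transporters of the barrier held all 3 members with an unadjusted p under 0.05 by edgeR's quasi-likelihood test with the replicate block. With no block there were 4 such members, *Slco1a4*, *Mfsd2a*, *Cldn5* and *Kdr*, while *Slco1c1* had a p of 0.0683. Of these 3, 2 were lower and 1 was higher in SP. Of all 8 transporters 5 were below and 3 above 0, with a median log2FC of -0.04. That median ran from -0.07 to 0.01 when a replicate was left out. The upstream sequence of these 3 genes is shown because 2 of them lie in 1 gene cluster of organic anion transporters and both had lower values in SP. The 250 bases before each start come from RefSeq with GRCm38.p6, written 5′ to 3′ along the strand of the gene. They are chr6:141524104-141524353 on the plus strand for *Slco1c1*, chr6:141856221-141856470 on the minus strand for *Slco1a4* and chr4:122961189-122961438 on the minus strand for *Mfsd2a*. Capitals mark matches on either strand to motifs of factor families active in endothelium: AGGAAG (ETS), CTTTGA (TCF/LEF), ATTGTT (SOX) and CCACCC (KLF).
Slco1c1: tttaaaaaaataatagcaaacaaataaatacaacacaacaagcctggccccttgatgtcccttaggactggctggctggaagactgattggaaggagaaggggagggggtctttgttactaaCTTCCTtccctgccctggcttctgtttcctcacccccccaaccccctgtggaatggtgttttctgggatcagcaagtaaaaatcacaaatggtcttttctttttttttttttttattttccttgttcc
Slco1a4: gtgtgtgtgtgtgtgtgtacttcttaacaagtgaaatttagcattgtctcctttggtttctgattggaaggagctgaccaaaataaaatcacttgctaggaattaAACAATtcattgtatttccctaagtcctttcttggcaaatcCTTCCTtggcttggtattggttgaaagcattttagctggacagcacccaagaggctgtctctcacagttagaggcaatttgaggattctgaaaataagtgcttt
Mfsd2a: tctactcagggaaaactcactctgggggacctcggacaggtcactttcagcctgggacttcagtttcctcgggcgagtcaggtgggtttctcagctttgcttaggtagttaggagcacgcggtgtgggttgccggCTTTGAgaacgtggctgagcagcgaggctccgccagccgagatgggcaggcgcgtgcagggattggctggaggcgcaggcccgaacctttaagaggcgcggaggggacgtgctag

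The *Slco1c1* window holds 1 ETS match, the *Slco1a4* window holds 1 SOX and 1 ETS match, and the *Mfsd2a* window holds 1 TCF/LEF match. The longest run shared by the windows of *Slco1c1* and *Slco1a4* was searched for after the values of both were seen. It has 14 bases, ctgattggaaggag, and begins 167 and 191 bases before their starts. On either strand it occurs in the windows of 2 of 27025 genes, and its role was not tested. In all, 29 of the 43 members had an entry in the sequence table, and *Cdh5*, *Pecam1*, *Esam*, *Icam2*, *Nos3*, *Vwf*, *Slc7a5*, *Sox17*, *Sox18*, *Ly6a*, *Pdgfrb*, *Higd1b*, *Tagln* and *Myh11* did not. The ETS letters occurred in the windows of 12 of these 29 members (41.4%) and of 32.3% of all 27025 genes. For TCF/LEF the shares were 13.8% and 15.8%, for SOX 13.8% and 10.9%, and for KLF 55.2% and 30.6%. A match describes the letters of a window and is not evidence that a factor binds there.

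*Slco1a4* (ENSMUSG00000030237, chromosome 6 from 141805440 to 141856199 on GRCm38, minus strand) encodes an organic anion transporter of brain endothelium that also carries thyroid hormones and steroid conjugates. Its level was 47.4, 51.8 and 54.6 CPM in vehicle 1, 2 and 3 and 44.5, 42.7 and 44.2 CPM in SP 1, 2 and 3. Each SP library was below each vehicle library, and the SP libraries lay closer together than the vehicle libraries did. The means were 51.3 ± 3.63 CPM (SD, n = 3) for vehicle and 43.8 ± 0.974 CPM (SD, n = 3) for SP. The log2FC was -0.23 (SE 0.0663, 95% interval -0.38 to -0.07), with an unadjusted p of 0.0102 and an FDR of 0.394 by edgeR's quasi-likelihood test, and the value was lower in SP in 3 of 3 pairs. Of its 31-base sequences, 5.03% also occur in other genes, mainly in *Slco1a5*, which had at most 46 counts in any library. Without replicate 1, 2 and 3 the log2FC was -0.29, -0.20 and -0.19, with an unadjusted p of 0.0105, 0.0258 and 0.0599 by the same test.

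*Slco1c1* (ENSMUSG00000030235, chromosome 6 from 141524368 to 141570177, plus strand) encodes a thyroxine transporter found in brain endothelium and in choroid plexus epithelium. Its level was 83.8, 82.0 and 94.1 CPM in vehicle 1, 2 and 3 and 49.0, 72.4 and 85.0 CPM in SP 1, 2 and 3. SP 1 was far below the 5 other libraries, at 0.587 of their mean, SP 2 was below all vehicle libraries, and SP 3 lay between vehicle 1 and vehicle 3. The log2FC was -0.36 (SE 0.118, 95% interval -0.64 to -0.09), with an unadjusted p of 0.0170 and an FDR of 0.417 by edgeR's quasi-likelihood test. It was the only member called under any alternative that was run, with no filter on low counts, where edgeR gave a log2FC of -0.37 and an FDR of 0.0435. Over all alternatives its FDR ran from 0.0435 to 0.856, the highest without replicate 1.

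The choroid plexus markers were low in the same libraries as *Slco1c1*. Of 13 choroid plexus markers, 5 had an unadjusted p under 0.05 by edgeR's quasi-likelihood test, all lower in SP, where 5.59% of all tested genes were lower. Limma-voom also gave 5 and DESeq2 gave 0. The median log2FC of the 13 was -1.12, and *Ttr* had -1.58, or -0.35 without replicate 1. Their sums, given above, were lowest in SP 1 and next lowest in SP 2, the order also seen for *Slco1c1*. Without replicate 1, the log2FC of *Slco1c1* was -0.16, with an unadjusted p of 0.0897 by edgeR's quasi-likelihood test. For *Slco1a4* the SP 1 library was the highest of the 3 SP libraries. The part of choroid plexus epithelium in the values of *Slco1c1* was not tested.

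Other genes of the *Slco1* cluster were low or absent. *Slco1b2* had 6 to 16 counts in each library and a log2FC of -0.03. *Slco1a5* had 31, 30 and 46 counts in vehicle 1, 2 and 3 and 3, 24 and 38 counts in SP 1, 2 and 3, and its log2FC of -0.73 had an unadjusted p of 0.189 by edgeR's quasi-likelihood test. *Slco1a6* had at most 4 counts, and *Slco1a1* had 0 counts in all 6 libraries.

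*Mfsd2a* (ENSMUSG00000028655, chromosome 4 from 122946850 to 122961188, minus strand) encodes the lysophosphatidylcholine transporter that brings docosahexaenoic acid into the brain and keeps transcytosis low. Its level was 13.5, 13.9 and 13.7 CPM in vehicle 1, 2 and 3 and 15.5, 16.2 and 15.8 CPM in SP 1, 2 and 3. All SP libraries were above all vehicle libraries, and the libraries within each group lay close together. The log2FC was 0.21 (SE 0.0782, 95% interval 0.03 to 0.40), with an unadjusted p of 0.0278 and an FDR of 0.439 by edgeR's quasi-likelihood test, and the value was higher in SP in 3 of 3 pairs. Leaving out any 1 replicate gave a log2FC of 0.21 to 0.22 and an unadjusted p of 0.0716 to 0.0938 by edgeR's quasi-likelihood test, while DESeq2 with the block gave an unadjusted p of 0.211.

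**Figure D4:**
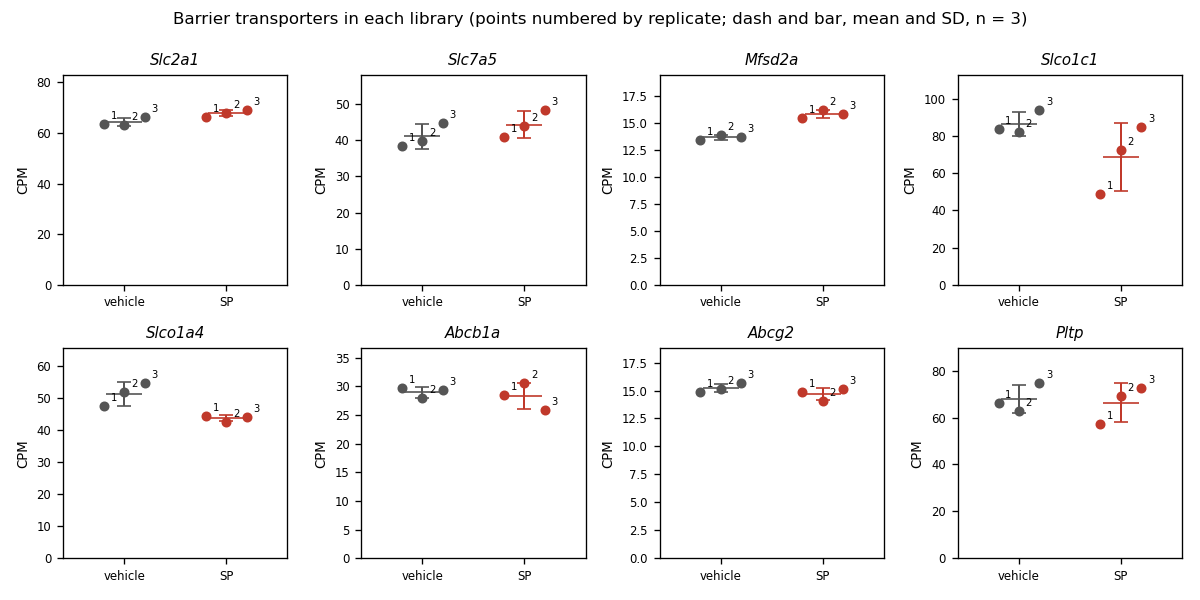
Level in CPM of the 8 barrier transporters in each library, with the replicate number beside each point and the mean and SD of 3 mice per group as dash and bar. *Slco1a4* and *Mfsd2a* separate the groups in opposite directions, *Slc2a1* does so narrowly, and *Slco1c1* is lowest in SP 1.

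*Slc2a1*, the glucose transporter of the barrier, was at 63.7, 63.0 and 66.3 CPM in vehicle 1, 2 and 3 and 66.5, 68.1 and 69.2 CPM in SP 1, 2 and 3. The groups did not overlap, but SP 1 and vehicle 3 were almost equal. The log2FC was 0.08 (95% interval -0.05 to 0.20), with an FDR of 0.663 by edgeR's quasi-likelihood test. *Slc7a5*, the large neutral amino acid transporter, had a log2FC of 0.11 and was higher in SP in 3 of 3 pairs, although the groups overlapped. The efflux pumps *Abcb1a* and *Abcg2* had log2FC of -0.04 and -0.05, and *Pltp* had -0.04. *Abcb1a* shares 23.3% of its 31-base sequences with other genes, mainly *Abcb1b*, so its value is uncertain.

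No junction or adhesion gene was called. Of 8 genes, 4 were above 0 and 4 below, with a median log2FC of -0.01, or -0.03 to 0.02 when a replicate was left out. By edgeR's quasi-likelihood test 0 had an unadjusted p under 0.05, where DESeq2 and limma-voom also gave 0. *Cldn5* (ENSMUSG00000041378, chromosome 16 from 18776847 to 18778262), the main claudin of the brain tight junction, was at 26.6, 28.2 and 27.1 CPM in vehicle 1, 2 and 3 and 34.1, 31.8 and 27.4 CPM in SP 1, 2 and 3. SP 1 and SP 2 were above all vehicle libraries, while SP 3 lay among them. The log2FC was 0.18 (SE 0.0809, 95% interval -0.01 to 0.37), with an FDR of 0.505 by edgeR's quasi-likelihood test, and the value was higher in SP in 3 of 3 pairs. Without replicate 1 the log2FC was 0.10. The unadjusted p was under 0.05 with no replicate block (0.0447), with no filter on low counts (0.0444) and without replicate 3 (0.0235, log2FC 0.26).

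*Pecam1* was among the steadiest genes of the set, at 17.4, 17.9 and 18.3 CPM in vehicle 1, 2 and 3 and 17.5, 17.5 and 17.8 CPM in SP 1, 2 and 3. All SP libraries lay within the vehicle range, and the log2FC was -0.02 (95% interval -0.19 to 0.15). The other tight junction genes, *Tjp1* with 0.07 and *Ocln* with -0.03, and the cadherin of endothelial adherens junctions, *Cdh5*, with -0.02, were likewise near 0. *Esam* had a log2FC of 0.05, *Icam2* had -0.08 and the sialomucin gene *Emcn* had 0.01. *Emcn* and *Ocln* were lowest in SP 1, at 0.694 and 0.797 of the mean of the 5 other libraries.

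Among the 9 receptor and vessel signalling genes, the median log2FC was 0.03, and 0 had an unadjusted p under 0.05 by edgeR's quasi-likelihood test, where DESeq2 and limma-voom also gave 0. The lowest value belonged to *Kdr*, the main signalling receptor for VEGF, with 21.6, 19.4 and 23.3 CPM in vehicle 1, 2 and 3 and 17.1, 20.3 and 18.4 CPM in SP 1, 2 and 3. SP 1 and SP 3 were below all vehicle libraries, and SP 2 lay among them. The log2FC of *Kdr* was -0.20 (SE 0.0987, 95% interval -0.44 to 0.03), with an FDR of 0.538 by edgeR's quasi-likelihood test. Without replicate 2 the log2FC was -0.34 (p 0.00498), and the unadjusted p was also under 0.05 with no replicate block (0.0480) and with no filter on low counts (0.0361). The other VEGF receptor, *Flt1*, had a log2FC of 0.04 and a range of 56.6 to 62.3 CPM. The angiopoietin receptor genes *Tek* and *Tie1* had log2FC of -0.04 and 0.08, and the TGF-beta coreceptor *Eng* had 0.03. *Nos3*, the endothelial nitric oxide synthase, had the highest value of the 9 with 0.16 (0.02 without replicate 1), *Cav1* had -0.01, *Vwf* had 0.03 and *Egfl7* had 0.00. Of the sequences of *Egfl7*, 6.62% occur in other genes.

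The 5 endothelial transcription factors had a median log2FC of 0.12, or 0.07 to 0.25 when a replicate was left out, with wide intervals, of which 0 lay within 0.3 of 0. By edgeR, DESeq2 and limma-voom, 0 of them had an unadjusted p under 0.05. Their expression was low, with a highest mean of 6.27 CPM for *Klf2*. *Sox17*, an arterial and Wnt-responsive factor, was at 4.30, 4.81 and 4.86 CPM in vehicle 1, 2 and 3 and 6.18, 5.52 and 4.89 CPM in SP 1, 2 and 3. The groups did not overlap, yet SP 3 and vehicle 3 were almost equal, and the log2FC of 0.24 (SE 0.146, 95% interval -0.10 to 0.59) had an FDR of 0.616 by edgeR's quasi-likelihood test and was 0.10 without replicate 1. The related *Sox18* had 0.19 (0.07 without replicate 1), the ETS factor *Erg* had 0.12 (-0.03 without replicate 1), and the flow-responsive factors *Klf2* and *Klf4* had 0.06 and -0.05. *Sox17* and *Sox18* were both highest in SP 1, like *Cldn5*. The 3 surface markers lay near 0, with 0.02 for *Itm2a*, 0.09 for *Ly6c1* and 0.06 for *Ly6a*. *Ly6c1* and *Ly6a* share 46.8% and 31.9% of their 31-base sequences with other genes of their family, so reads may have been divided between them and their values are uncertain.

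No pericyte gene was called, and 4 of 7 had an interval of the log2FC within 0.3 of 0. Of the 7 genes, 4 were above 0 and 3 below, and the median log2FC was 0.01, or 0.02 to 0.07 when a replicate was left out. By edgeR's quasi-likelihood test 0 had an unadjusted p under 0.05, where DESeq2 and limma-voom also gave 0. *Pdgfrb*, the receptor through which endothelium recruits pericytes, was at 25.7, 26.3 and 26.1 CPM in vehicle 1, 2 and 3 and 24.8, 25.4 and 26.7 CPM in SP 1, 2 and 3. The groups overlapped, and the log2FC was -0.02 (95% interval -0.18 to 0.13). *Rgs5*, a regulator of G protein signalling and the most abundant of the 10 mural members by CPM, was at 86.4, 86.0 and 95.2 CPM in vehicle 1, 2 and 3 and 88.7, 89.4 and 91.5 CPM in SP 1, 2 and 3. All SP libraries lay inside the vehicle range, and the log2FC was 0.01 (95% interval -0.11 to 0.14). *Vtn* had a log2FC of -0.01 and *Notch3* had -0.04. The channel genes *Kcnj8* and *Abcc9*, neighbours on chromosome 6, had 0.19 and 0.14, and *Higd1b* had 0.28 with an interval from -0.31 to 0.87 at 1.51 CPM.

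No smooth muscle gene was called, and all 3 varied widely between mice. *Acta2*, smooth muscle actin, was at 13.8, 16.9 and 14.0 CPM in vehicle 1, 2 and 3 and 19.8, 12.2 and 14.5 CPM in SP 1, 2 and 3. *Tagln* was at 5.50, 9.34 and 6.53 CPM in vehicle and 9.25, 4.19 and 6.15 CPM in SP, in the same order of mice. *Myh11*, the smooth muscle myosin heavy chain, was at 9.24, 14.2 and 10.9 CPM in vehicle and 14.8, 10.8 and 13.6 CPM in SP. All 3 genes were highest in vehicle 2 and SP 1, and the groups overlapped. Their log2FC were 0.04, -0.15 and 0.20, with standard errors of 0.168, 0.307 and 0.185. The 3 genes summed to 28.5, 40.4 and 31.5 CPM in vehicle 1, 2 and 3 and to 43.8, 27.2 and 34.2 CPM in SP 1, 2 and 3. Their coefficients of variation were 17.7% to 30.3%, and their log2FC changed with the replicate left out. By edgeR's quasi-likelihood test, the log2FC of *Tagln* was -0.61 (p 0.0382) without replicate 1 and 0.33 (p 0.128) without replicate 2. That of *Myh11* was -0.04 (p 0.822) without replicate 1 and 0.49 (p 0.00311) without replicate 2.

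Further vascular genes, in 7 lists beside the 43 members, held 128 tested genes. With edgeR's quasi-likelihood test 0 of them were called, and at an unadjusted p under 0.05 there were 6 higher (4.69%) and 14 lower (10.9%), against 4.48% and 5.59% of all tested genes. DESeq2 with the block called 1 of them and had 0 higher and 6 lower (4.69%), against 4.13% of all tested genes in either direction. Limma-voom called 0 and had 5 higher and 12 lower (13.3% in all), against 9.99%. The counts of each list below are at an unadjusted p under 0.05 by edgeR. Of 31 other endothelial genes, 1 was higher and 2 were lower, with a median log2FC of -0.07 against 0.00 for all tested genes. That is 9.68% in all, against 10.1% of all tested genes. DESeq2 gave 0 higher and 1 lower, and limma-voom 1 and 2. *Cgn*, a tight junction protein of epithelia and endothelia, was at 11.6, 10.95 and 12.0 CPM in vehicle 1, 2 and 3 and 6.69, 6.77 and 10.9 CPM in SP 1, 2 and 3. SP 1 and SP 2 were far below vehicle and SP 3 only just, with a log2FC of -0.53 and an FDR of 0.358 by edgeR's quasi-likelihood test. With no filter on low counts *Cgn* was called, at an FDR of 0.0368. *Rasip1*, needed for vessel lumen formation, had a log2FC of -0.42, and *Slc16a1*, a lactate transporter of the barrier, had 0.23 (0.13 without replicate 1), and neither overlapped between groups. The most abundant gene of the list, *Spock2*, had 0.03.

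In the ligand and receptor list for VEGF, angiopoietin, Notch and PDGF signalling, 1 of 21 genes was higher (*Hes1*, a Notch target, 0.29) and 1 was lower (*Angpt1*, the ligand of *Tek*, -0.27), and the median was 0.02. That is 9.52% in all, against 10.1% of all tested genes. DESeq2 gave 0 higher and 0 lower, and limma-voom 1 and 1. The Notch ligand *Dll4* had -0.46 and its groups did not overlap, while the most abundant gene, *S1pr1*, had -0.04. Of 14 genes of barrier Wnt signalling, 1 was lower, where DESeq2 and limma-voom gave 0, and the median was -0.06. This was *Fzd4*, the receptor for norrin and Wnt ligands, with 25.4, 24.6 and 26.9 CPM in vehicle 1, 2 and 3 and 11.1, 20.7 and 26.4 CPM in SP 1, 2 and 3. SP 1 held less than the other libraries and SP 3 lay inside the vehicle range, and the log2FC was -0.46, or -0.14 without replicate 1. *Adgra2*, a coreceptor for Wnt7 ligands, had 0.14 and *Ctnnb1*, beta-catenin, had 0.02. *Wnt7b* had -0.09, or -0.18 without replicate 1 and -0.01 without replicate 2.

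Of 15 activation and leak genes, 12 passed the filter on low counts. Among these, 0 were higher and 3 were lower at an unadjusted p under 0.05 by edgeR's quasi-likelihood test, with a median log2FC of -0.07. That is 25% in all, against 10.1% of all tested genes. DESeq2 gave 0 higher and 1 lower, and limma-voom 0 and 3. *Vcam1*, a leukocyte adhesion molecule, was at 41.2, 39.0 and 40.1 CPM in vehicle 1, 2 and 3 and 28.0, 27.8 and 39.3 CPM in SP 1, 2 and 3. SP 1 and SP 2 were below vehicle and SP 3 was not, with a log2FC of -0.36, and with no filter on low counts it was called, at an FDR of 0.0514. The interferon-induced *Bst2* had -0.53, and *Plvap*, the diaphragm protein of fenestrated vessels such as those of the choroid plexus, had -0.26. The water channel *Aqp1*, held by both this list and the choroid plexus list, was at 1.07 CPM in SP 1 and at 14.2 to 30.2 CPM elsewhere. The part of choroid plexus vessels in these values was not tested.

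**Figure D5:**
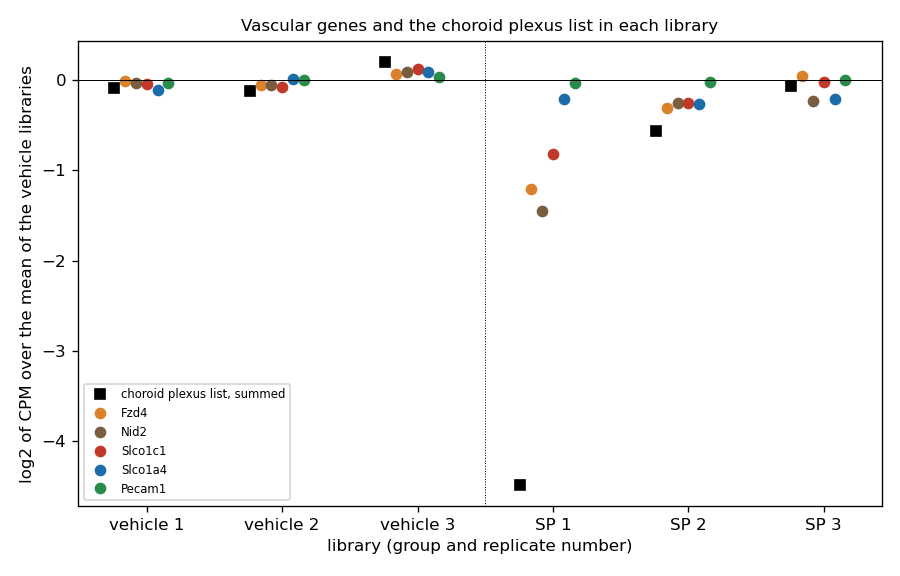
Log2 of the CPM of each library over the mean of the vehicle libraries, for the summed choroid plexus list and for *Fzd4*, *Nid2*, *Slco1c1*, *Slco1a4* and *Pecam1*. In SP 1 the choroid plexus list, *Nid2*, *Fzd4* and *Slco1c1* are lowest, while *Pecam1* stays near 0 in each library. *Nid2*, *Fzd4* and *Slco1c1* were picked because they were lowest in SP 1. That library was the highest of the 6 for 12 members and the lowest for 9.

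Of 13 tested genes of arterial, capillary and venous segments, 2 were higher and 3 were lower, with a median log2FC of 0.01. That is 38.5% in all, against 10.1% of all tested genes. DESeq2 gave 0 higher and 3 lower, and limma-voom 2 and 3. The capillary carbonic anhydrase *Car4* was at 26.9, 27.4 and 28.2 CPM in vehicle 1, 2 and 3 and 32.2, 35.6 and 29.5 CPM in SP 1, 2 and 3. All SP libraries were above vehicle, with a log2FC of 0.23, and the arterial *Sema3g* had 0.36, also without overlap. *Nr2f2*, a factor of venous identity that other cell types make too, was at 39.7, 34.1 and 41.8 CPM in vehicle and 33.9, 17.4 and 30.0 CPM in SP, in the same order of mice. It was lowest in SP 2, with a log2FC of -0.55 (SE 0.129; -0.35 without replicate 2) and an FDR of 0.335 by edgeR's quasi-likelihood test, and it was the gene called with DESeq2, at an FDR of 0.0709. Over the alternatives its FDR ran from 0.00663 with no filter to 0.435 without replicate 1. *Efnb2*, an arterial ephrin also made by neurons, had -0.35 and was lowest in SP 2 as well, with 26.1 CPM against 41.5 to 47.6 CPM elsewhere.

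Among 25 other mural genes, 0 were higher and 1 was lower, where DESeq2 and limma-voom gave 0, with a median log2FC of -0.10. This was *Atp13a5*, a pericyte ATPase, with 12.6, 12.6 and 13.5 CPM in vehicle and 11.2, 10.9 and 11.5 CPM in SP, without overlap and with a log2FC of -0.20. *Mylk*, the myosin light chain kinase, was at 47.7 CPM in SP 2 and at 20.6 to 22.2 CPM in the other libraries. *Pcp4l1* had -0.16 (-0.06 without replicate 1) and the most abundant gene, *Tpm1*, had 0.04. Of 13 basement membrane genes, 2 were higher and 3 were lower, with a median of -0.08. That is 38.5% in all, against 10.1% of all tested genes. DESeq2 gave 0 higher and 1 lower, and limma-voom 1 and 3. The collagen IV chains *Col4a1* and *Col4a2* had 0.14 and 0.13, while the laminin chain *Lama4* had -0.43 (-0.26 without replicate 2), the perlecan gene *Hspg2* had -0.26 and the nidogen gene *Nid2* had -0.60. *Nid2* was at 13.2, 12.97 and 14.3 CPM in vehicle and 4.94, 11.3 and 11.4 CPM in SP, lowest in SP 1, and without replicate 1 its log2FC was -0.26. It was called with no filter on low counts, at an FDR of 0.0573. The abundant *Sparcl1*, made largely by astrocytes, had -0.08, or -0.16 without replicate 1 and -0.02 without replicate 2.

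Markers of the other cells in the tissue were counted beside the vascular genes. At an unadjusted p under 0.05 by edgeR's quasi-likelihood test, 8 of 10 oligodendrocyte markers were higher, with a median log2FC of 0.35 and *Mbp* as the most abundant (0.38, or 0.22 without replicate 2), where 4.48% of all tested genes were higher. DESeq2 gave 5 of the 10 and limma-voom 8. The paper names *Mbp* among its downregulated genes, so the direction given here rests on labels that are in doubt. Of 16 leptomeningeal markers 5 were lower, against 5.59% of all tested genes, with a median of -0.28 and *Ptgds* as the most abundant (-0.23, or 0.00 without replicate 2), and DESeq2 gave 1 and limma-voom 4. Of 10 ependymal markers 2 were higher, of 14 microglia and macrophage markers 1 was lower, and of 16 immediate early genes 2 were lower. In the same order, DESeq2 gave 1, 0 and 1 for these 3 lists and limma-voom 2, 1 and 2. For astrocyte endfeet 0 of 12 markers were below 0.05, for blood cells 0 of 5 tested and for neurons 0 of 10, with medians of 0.05, 0.23 and 0.07. DESeq2 and limma-voom gave 0 for endfeet and blood, and 2 and 1 for neurons. The part of these cells in the vascular values was not tested.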

How the data were processed

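Stranded mRNA libraries of the hippocampus were compared between 3 mice given SP and 3 given vehicle. The authors used TrimGalore for trimming, STAR for alignment to GRCm38 and Salmon for quantification, and the deposited table holds estimated counts per gene, scaled neither for library size nor for length. Of these values 9.77% were not whole, and they were rounded. Columns were matched to mice by their labels. The members and lists were chosen with earlier results of these data known.

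Genes were kept by filterByExpr (minimum count 10, minimum total count 15) in edgeR 4.0.16 under R 4.3.3, which left 17069. Libraries were normalized by TMM and tested by glmQLFit and glmQLFTest, blocked by replicate number, with Benjamini-Hochberg adjustment over all tested genes. The labels call that number a batch and the methods of the study adjust for replicates. As a check of this pairing, deviations from the group mean were correlated across genes, and Pearson's r for pairs 1, 2 and 3 was 0.0118, -0.0798 and 0.0385. DESeq2 1.42.0 and limma-voom 3.58.1 were alternatives, beside other normalizations, filters and thresholds, no block, and leaving out each replicate.

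Values per library are given for members with an unadjusted p under 0.05 or without overlap between groups, and for the defining genes *Cldn5*, *Pecam1*, *Slc2a1*, *Pdgfrb*, *Rgs5* and *Acta2*. Of each of the 7 further vascular lists the 3 genes with the lowest p and the most abundant were named, except 1 gene that is not reported here, and of the lists of other cells only the most abundant gene of some. Values of *Kdr*, *Tagln*, *Myh11* and *Aqp1*, and all values of *Sema3g*, *Efnb2*, *Hspg2* and *Col4a1* and of the *Slco1* cluster, were chosen after they were seen. Positions, transcript lengths and shared 31-base sequences came from GENCODE M21 on GRCm38. At these depths a count of 0 allows up to 0.109 to 0.135 CPM (3 counts of a library), for counting error only. Each mouse gave 1 library, so that the spread is between mice.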

Additional observations from a re-analysis of the deposited data

How the results depend on the processing

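The number of genes called, 5, was 2 with no replicate block (where the filter kept 16707 genes), 384 with no filter on low counts, 0 with at least 10 counts in every library, 36 with DESeq2, 2 with limma-voom, 0 at an FDR under 0.05, and 9 to 36 when a replicate was left out. Members called stayed at 0 except with no filter, where *Slco1c1* made it 1. Members at an unadjusted p under 0.05, 3, were 4 with no replicate block (2 of the 3 among them), 5 with no filter and 2 to 5 when a replicate was left out. The median log2FC of the members ran from 0.0165 without replicate 2 to 0.0339 without replicate 3. When a replicate was left out, the fold change of 21 of 43 members changed sign at least once, most widely for *Tagln* (-0.61 to 0.33) and *Myh11* (-0.041 to 0.49). For other genes log2FC ran from -0.011 to 0.044 for *Rgs5*, -0.21 to 0.28 for *Acta2*, -0.10 to 0.0023 for *S1pr1*, -0.014 to 0.049 for *Ctnnb1*, -0.0068 to 0.18 for *Foxj1*, -0.015 to 0.46 for *Hba-a2*, -0.030 to 0.59 for *Hbb-bs*, -0.028 to 0.20 for *Gfap*, -0.086 to 0.045 for *Slc1a2* and -0.10 to 0.080 for *Arc*. The causes were not tested. The 95% interval lay within 0.3 of 0 for 24 of 43 members. Those of *Higd1b*, *Icam2*, *Kcnj8* and *Erg*, each under 5 CPM, reached beyond 0.3 in at least 1 direction. So did those of further members at higher levels, among them *Acta2*, *Myh11*, *Slco1c1* and *Tagln* (-0.87 to 0.57). Deeper sequencing was not tested.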
